A study of Mus musculus with 20 samples.

Results

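Arterioles and peritubular capillaries, the vessels that feed and surround the nephrons of the kidney cortex, were compared directly over all genes. The comparison rests on 8 of the 20 mRNA libraries of the series, chosen by their label: 4 libraries of arterioles and 4 of peritubular capillaries. The kidneys came from healthy, untreated wild-type male C57BL6/OlaHsd mice, young adult animals, and no group carried a transgene or received a treatment. Vessels of the kidney cortex were taken from cryosections by laser microdissection (LMD), with the same tissue area for both groups. Arterioles were identified by morphology after hematoxylin staining. Peritubular capillaries were taken from a second slide stained with fluorescent isolectin B4, a lectin that binds endothelium, so slide and stain cannot be told apart from vessel type. The labels call the samples biological replicates but do not say which mouse gave which sample. Every p-value therefore rests on the variation among the 8 samples. Libraries carry the numbers of their columns, and values follow the order 93, 96, 98 and 100. The column of capillary 96 bears an extra mark, WH, whose meaning was not given in the sources used here.

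Arterioles set the resistance to blood flow: a lining of endothelium sits on an elastic lamina inside layers of contractile smooth muscle and an outer coat of fibroblasts and collagen. Peritubular capillaries are thin endothelial tubes with few pericytes, pressed between the tubules, and they take up the water and solutes that the tubules reabsorb. Endothelium of arteries uses Notch ligands, connexins and von Willebrand factor, whereas endothelium of kidney capillaries is fenestrated and is known for endomucin, the diaphragm protein Plvap and the VEGF receptor Kdr. An LMD sample holds every cell in the dissected area, and in such bulk samples fewer cells of a type and less RNA per cell cannot be told apart.

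Arteriole libraries held between 6121550 and 11443164 counts and capillary libraries between 6864858 and 10585288. Of the 8340 genes tested, between 1.88% and 5.18% had no count in a given arteriole library and between 1.27% and 5.07% in a given capillary library. The mean Spearman correlation of expression was 0.472 over the 6 pairs of arteriole libraries, 0.607 over the 6 pairs of capillary libraries and 0.328 over the 16 pairs that cross the groups. The replicates therefore varied widely, with a biological coefficient of variation of 1.33, and single genes often differed widely within a group. Levels are given as CPM, counts scaled to the library total.

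With edgeR's quasi-likelihood test, 356 genes were higher in arterioles (4.27% of the genes tested) and 262 were lower (3.14%) at a false discovery rate (FDR) under 0.05 and a log2 fold change beyond 1 in size. The median log2 fold change was 5.08 among the genes called higher and -4.27 among those called lower, against 0.26 over all genes tested. All 4 arteriole libraries lay above all 4 capillary libraries for 687 genes (8.24%) and below them for 752 genes (9.02%). Of the called genes, 191 of 356 kept the call in each of the 8 fits that left out 1 library, and 90 of 262 did so. The number of higher genes fell to 294 without capillary 93 or 96 and to 289 without capillary 98. The number of lower genes fell to 151 without capillary 96, to 139 without capillary 98 and to 133 without capillary 100. Genes called higher made up 57.6% of the calls. This share was 67.9% with relative log expression size factors and 68.3% with no filter on low counts. It was 50% with DESeq2, 48.6% with all 20 libraries and 48.0% with totals without mitochondrial, hemoglobin and tubule genes. When counts were read per endothelial count it was 4.00%.

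**Figure D1:**
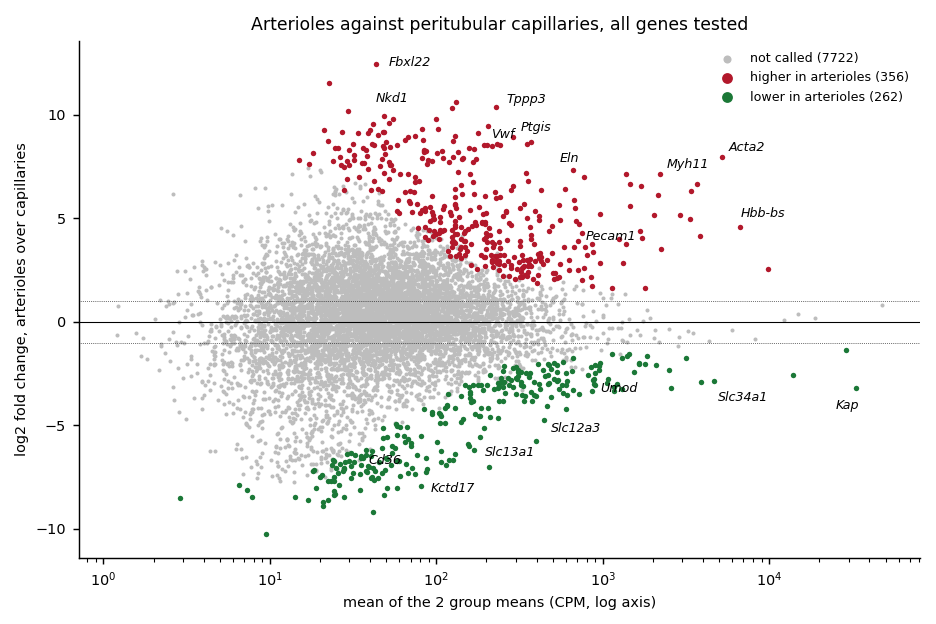
Mean level of each of the 8340 genes tested (horizontal axis, mean of both group means in CPM, log axis) against its log2 fold change of arterioles over peritubular capillaries (vertical axis), with genes called higher in red, genes called lower in green, genes not called in grey and the fold threshold as dotted lines. Smooth muscle, hemoglobin and vessel wall genes stand at the top and kidney transport genes at the bottom, and the called genes with low means are those with the largest changes.

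The labels were set beside markers of cell types. Counts of the smooth muscle contractile list took 4.27% ± 1.06 of an arteriole library (SD, n = 4) and 0.120% ± 0.0172 of a capillary library. The pan-endothelial list took 0.565% ± 0.0596 and 0.0906% ± 0.0172, in the same order, a ratio of 6.23. Lists of proximal tubule transport and of proximal tubule metabolism took 2.21% ± 0.247 and 9.06% ± 0.922 of a capillary library, against 0.298% ± 0.109 and 1.23% ± 0.600 of an arteriole library. Capillary libraries thus carried fewer counts of general endothelial genes than arteriole libraries and many counts of tubule genes, and their libraries did not overlap with those of arterioles in any of these 4 lists. Whether the tubule counts came from tissue beside the capillaries was not tested, and the results are named by the label of the dissected vessel.

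**Figure D2:**
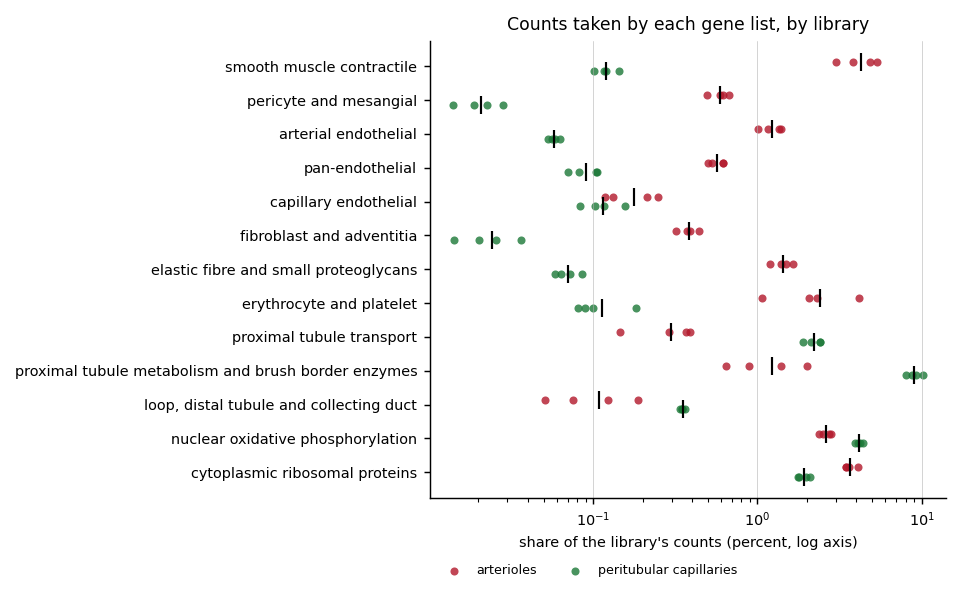
Share of each library's counts (percent, log axis) taken by 13 gene lists, with arteriole libraries in red, peritubular capillary libraries in green and black bars for the group means. Vessel wall lists and the hemoglobin-rich erythrocyte list are higher in arterioles, tubule lists are higher in capillaries, and the capillary endothelial list overlaps between the groups.

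Smooth muscle genes made up the clearest difference. Of 20 contractile genes, 19 were tested and 15 were higher in arterioles, none was lower, and the median log2 fold change was 5.48. In all 4 arteriole libraries 17 of the 19 lay above all capillary libraries. Acta2, smooth muscle actin (chromosome 19, 34241090 to 34255590, GRCm38), stood at 10929, 16508, 7662 and 6536 CPM in arterioles and at 42.6, 63.5, 27.1 and 33.8 CPM in capillaries. All arteriole libraries lay far above all capillary libraries, with a ratio of means of 249 (log2 fold change 7.96 ± 0.48 SE, FDR 1.6e-10). Myh11, the myosin heavy chain of smooth muscle, stood at 5382, 5088, 4044 and 3058 CPM against 10.9, 28.5, 72.0 and 14.6 CPM (log2 fold change 7.12, FDR 6.2e-08). Myl9, its regulatory light chain, reached 7248 ± 2714 CPM against 71.5 ± 28.7 (6.66, FDR 2.2e-09), and Flna, the actin crosslinker filamin A, 6687 ± 3497 against 83.2 ± 32.8 (6.33, FDR 2.0e-08). The 4 tested contractile genes that were not called, Tagln, Des, Vcl and Carmn, are named after their values were seen, because they are so few. Tagln, the actin-binding protein transgelin, had 344, 734, 256 and 353 CPM in arterioles, and among capillaries it had 156 CPM in library 100 and between 1.53 and 8.08 in the other 3.

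Genes of smooth muscle channels and calcium handling moved the same way where they were called. Of 21 members, 12 were tested and 5 were higher. Jph2, which ties the sarcoplasmic reticulum to the cell surface, stood at 496, 392, 241 and 485 CPM against 1.18, 0.513, 1.25 and 1.30 CPM (log2 fold change 8.55, FDR 2.0e-06). The caveola coat gene Cavin1 reached 904 ± 323 CPM against 42.7 ± 32.8 (4.40, FDR 0.00019), and the calcium pump Atp2b4 331 ± 194 against 11.7 ± 8.82 (4.82, FDR 0.0021). Kcnab1, a potassium channel subunit, had 72.2, 242, 27.1 and 97.8 CPM in arterioles and only 4 counts in all capillary libraries together.

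Promoters of the genes higher in arterioles held the CArG box, the recognition sequence of serum response factor, more often than promoters in general, as a description without a test. RefSeq promoters of build GRCm38.p6 (250 bases before to 50 after a gene's start, 300 bases) were at hand for 271 of the 356 higher genes and 197 of the 262 lower genes. On either strand, the CArG box was in 5.46% of the 366 promoters of higher genes, in 1.13% of the 266 promoters of lower genes, in 1.41% of the 8554 promoters of all genes tested and in 1.63% of all 32851 promoters. The MEF2 motif was in 1.37%, 1.13%, 0.386% and 0.557% of promoters, in the same order. Among the higher genes named by rule the share was smaller, 2.99% of 67 promoters. These belonged to the top gene Fbxl22 and the contractile gene Myl9. Both promoters are printed for that reason, 5′ to 3′ on the gene's strand, with the CArG box in capitals. In Fbxl22 the box starts 222 bases before the gene and in Myl9 161 bases before it.
Fbxl22, chr9:66514544-66514843, minus strand: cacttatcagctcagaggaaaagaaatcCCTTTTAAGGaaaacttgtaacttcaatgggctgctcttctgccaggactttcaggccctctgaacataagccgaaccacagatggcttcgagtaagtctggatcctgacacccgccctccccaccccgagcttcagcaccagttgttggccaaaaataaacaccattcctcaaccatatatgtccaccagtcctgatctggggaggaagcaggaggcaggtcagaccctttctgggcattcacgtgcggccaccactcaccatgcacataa
Myl9, chr2:156775214-156775513, plus strand: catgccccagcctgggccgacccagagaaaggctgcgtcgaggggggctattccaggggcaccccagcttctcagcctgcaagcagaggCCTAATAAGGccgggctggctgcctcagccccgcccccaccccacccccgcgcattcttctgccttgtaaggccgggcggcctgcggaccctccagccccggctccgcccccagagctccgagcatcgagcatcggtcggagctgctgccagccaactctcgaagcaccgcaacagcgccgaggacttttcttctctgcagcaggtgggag

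The genes with the highest fold change were not the classical contractile genes. Fbxl22, an F-box protein of the muscle sarcomere, had 175, 112, 22.3 and 37.8 CPM in arterioles and no count in any capillary library, so its mean was at least 973-fold higher than the 3 counts that a total of 0 allows over the group. Tppp3, a tubulin-binding protein, followed with 69.3, 1101, 324 and 342 CPM against 12 counts in all 4 capillary libraries (FDR 3.2e-06). Nkd1, an inhibitor of Wnt signalling, had 70.9, 738, 49.3 and 134 CPM against 6 counts (FDR 3.2e-05). Tgfb3, a TGF-β ligand, had 590, 575, 210 and 264 CPM against 18 counts (FDR 2.5e-06), and Fmod, the collagen-binding fibromodulin, 663, 308, 228 and 227 CPM against 22 counts (FDR 2.7e-06). All of these genes were at or near 0 in capillaries, which is how a rule on fold change picks genes. Hspa12b, Thsd4, Kcnab1, Inhba, Grip2, Pi15, Atp2b2, Dclk1, Apba1 and Map6 completed the 15 highest genes, with 2 to 10 counts each over the 4 capillary libraries, and their fitted fold changes depend on the small count that the fit adds. The call was kept without any 1 library for 13 of the 15. It was lost for Map6 without arteriole 96 (FDR 0.0534) and for Atp2b2 without arteriole 100, or capillary 93, 96 or 100 (FDR 0.0556 to 0.0890).

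Pericyte, fibroblast and matrix genes were higher in arterioles as well. Of 12 pericyte and mesangial genes, 10 were tested and 8 were higher, with a median log2 fold change of 4.72. Rgs5, a regulator of G protein signalling in mural cells, stood at 5138, 5178, 3259 and 3378 CPM against 21.2, 56.3, 87.9 and 74.6 CPM (log2 fold change 6.14, FDR 4.5e-08). Notch3, the Notch receptor of smooth muscle and pericytes, reached 472 ± 175 CPM against 7.19 ± 11.5 (6.03, FDR 0.00048), and the proteoglycan Cspg4 511 ± 398 against 12.5 ± 16.6 (5.35, FDR 0.00082). The integrin chain Itga8 stood at 31.1, 677, 117 and 39.5 CPM against 0.538 to 0.976 CPM (FDR 0.00043), and without arteriole 96 its FDR was 0.0548. Of 16 fibroblast and adventitia genes, 12 were tested and 9 were higher, with a median of 4.66. These included the fibrillar collagens Col1a1 (806 ± 402 against 26.5 ± 30.0 CPM, FDR 0.00022) and Col3a1 (454 ± 50.7 against 21.7 ± 21.5 CPM, FDR 0.0026), the proteoglycan Dcn (1072 ± 443 against 35.1 ± 38.8 CPM, FDR 0.00016) and Serpinf1, a secreted serpin (115 ± 113 against 0.292 ± 0.154 CPM, FDR 0.0028).

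Some genes of the elastic lamina were also higher in arterioles. Of 20 genes of elastic fibres and small proteoglycans, 13 were tested, all 13 had positive fold changes and 6 were called higher, with a median log2 fold change of 3.30. Eln, elastin itself, stood at 3456, 5136, 717 and 1663 CPM in arterioles and at 4.20, 37.0, 29.0 and 7.48 CPM in capillaries (log2 fold change 7.14, FDR 2.0e-06). Ltbp4, which takes part in elastic fibre assembly, reached 1869 ± 613 CPM against 49.8 ± 40.2 (5.23, FDR 1.7e-05). Mgp, an inhibitor of vessel calcification, reached 6445 ± 1620 CPM against 206 ± 44.4 (4.97, FDR 2.0e-08), and the small proteoglycan Optc 258 ± 124 against 0.494 ± 0.203 (FDR 1.5e-05). Basement membrane genes were less uniform, with 5 of 17 tested members higher, a median of 1.92 and 4 members with a negative fold change. The higher ones were the laminin chain Lamb2 (1172 ± 390 against 13.6 ± 12.4 CPM, FDR 2.7e-06), Sparc (2313 ± 690 against 323 ± 190 CPM, FDR 0.00047), Col18a1 (573 ± 162 against 91.6 ± 33.7 CPM, FDR 0.0080), Hspg2 (755 ± 297 against 97.8 ± 79.3 CPM, FDR 0.010) and Col4a2.

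Some general endothelial genes and most of the arterial set were higher in arterioles. Of 22 pan-endothelial genes, 20 were tested, 8 were higher and none was lower, with a median log2 fold change of 2.67. Pecam1, an adhesion molecule of all endothelium (chromosome 11, 106654217 to 106750628), stood at 2320, 2021, 702 and 471 CPM against 53.5, 35.03, 35.3 and 83.3 CPM (log2 fold change 4.74 ± 0.64 SE, FDR 2.2e-05). The groups did not overlap, and the ratio of means was 26.6. Cdh5, the junction protein VE-cadherin, had 38.7, 170, 55.9 and 198 CPM against 0.215, 6.54, 0.766 and 0.325 CPM (FDR 0.030). The other genes called higher were the tight junction gene Cldn5 (330 ± 151 against 3.07 ± 3.88 CPM, FDR 0.00022), the phosphatase Ptprb (717 ± 162 against 53.8 ± 34.8 CPM, FDR 0.0018), Egfl7 (593 ± 172 against 63.1 ± 78.1 CPM, FDR 0.010), Mmrn2 (650 ± 514 against 80.5 ± 41.8 CPM, FDR 0.0085), Cd93 (617 ± 117 against 95.8 ± 83.7 CPM, FDR 0.014) and Ramp2 (173 ± 170 against 8.08 ± 8.33 CPM, FDR 0.040). Of the other 12 tested genes, Kdr and Robo4 had negative fold changes (-1.88 each). Flt1, Eng, Erg, Cd34, Esam, Tie1, Ecscr, Tek, S1pr1 and Icam2 had positive ones between 0.75 and 3.50, and none of the 12 passed the test. Calls were lost on leaving out 1 library for 4 genes, with FDR up to 0.0890 for Cdh5 (arteriole 96 or 100, or capillary 93, 98 or 100), up to 0.215 for Ramp2 (arteriole 93, 98 or 100, or capillary 93, 98 or 100), up to 0.0553 for Cd93 (capillary 93, 96 or 98) and 0.0563 for Mmrn2 (arteriole 96). Conversely Icam2 (FDR 0.096) reached an FDR of 0.00047 without capillary 96, and Esam (0.079) one of 0.0262 without arteriole 96, and DESeq2 called Esam too. With all 20 libraries fitted together Icam2, Esam, Tie1 and Eng were called higher and Kdr lower.

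The arterial endothelial list had more calls: of 21 genes, 19 were tested, all 19 had positive fold changes and 13 were higher, with a median of 5.02. Vwf, the clotting protein von Willebrand factor (chromosome 6, 125546774 to 125686679), stood at 409, 821, 175 and 136 CPM in arterioles and at 1.40, 0.898, 0.766 and 0.976 CPM in capillaries (log2 fold change 8.55 ± 1.02 SE, FDR 4.9e-06). Sema3g, a semaphorin of arterial endothelium, stood at 401, 889, 790 and 568 CPM against 21.1, 15.4, 8.91 and 6.02 CPM (5.68, FDR 1.2e-05), and Heg1, a partner of the junction complex, at 841 ± 302 CPM against 10.2 ± 8.22 (6.37, FDR 4.8e-06). Gja4, a gap junction protein, stood at 537, 1024, 487 and 676 CPM, and its capillary values were 1.18, 2.57, 2.30 and 77.9 (5.02, FDR 0.0041). No arteriole library overlapped with a capillary library for any of these 4 genes. The other calls were Cytl1, a secreted cytokine-like protein (236 ± 163 against 1.13 ± 0.361 CPM, FDR 0.00028), Tm4sf1 (591 ± 155 against 46.3 ± 26.4 CPM, FDR 0.00098), Fbln5 (759 ± 510 against 74.9 ± 49.9 CPM, FDR 0.0024), the kinase Bmx (62.9 ± 62.9 against 0.151 ± 0.0511 CPM, FDR 0.014), Stmn2 (145 ± 167 against 1.85 ± 2.57 CPM, FDR 0.013), and Mgp, Ltbp4, Edn1 and Jag1. Efnb2, Unc5b, Sox17, Dll4, Cxcl12 and Notch1 were tested and not called, with log2 fold changes between 0.24 and 3.34, and Gja5 and Hey1 had too few counts to test. Unc5b was called with DESeq2 and with all 20 libraries fitted together (FDR up to 0.0320). Sox17 was called when equal column numbers were fitted as pairs (FDR 0.0435). The call of Stmn2 was lost without arteriole 96 (FDR 0.129) and that of Bmx without arteriole 96 or capillary 93, 96 or 98 (FDR up to 0.0672).

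Genes known from capillary endothelium did not form a mirror image. Of 16 members, 13 were tested, 1 was lower in arterioles, 1 was higher and the median log2 fold change was -0.12. Cd36, a fatty acid transporter of capillaries that other cell types also make (chromosome 5, 17781690 to 17888801), stood at 3.27, 2.30, 2.11 and 4.57 CPM in arterioles and at 217, 233, 258 and 320 CPM in capillaries. It was 83.9-fold higher in capillaries, the groups lay far apart and each group was narrow (log2 fold change -6.39 ± 1.02 SE, FDR 0.0002). Ehd4, a membrane trafficking protein, went the other way with 437, 914, 923 and 803 CPM against 82.3, 96.4, 81.0 and 90.6 CPM (3.13, FDR 0.00083). Emcn, endomucin, had 3.64, 3.06, 39.9 and 10.1 CPM in arterioles and 60.2, 49.9, 71.8 and 521 CPM in capillaries. All its capillary values lay above all arteriole values, but it did not pass the test (-3.63, FDR 0.077), and without arteriole 98 its FDR was 0.0438. It was also called with edgeR's version 4 form, with independent filtering and with the 16 microdissected or all 20 libraries fitted together, and without capillary 100 its FDR was 0.629. Plvap, which forms the diaphragms of fenestrae, had 78.9, 1.28, 27.4 and 64.8 CPM against 82.9, 66.7, 11.1 and 63.9 CPM, and the groups overlapped (-0.38, FDR 0.94). Cav1 (4.43, FDR 0.055) lay above all capillary libraries in 4 of 4 arteriole libraries. It was called under 7 alternatives, among them DESeq2 (FDR 0.0010) and relative log expression size factors (FDR 0.041). Plpp1, Plpp3, Igfbp3, Cav2, Esm1, Nrp1, Gpihbp1 and Npr3 had log2 fold changes between -1.84 and 2.28 with FDR of 0.21 or more. Plpp1 was called higher with all 20 libraries fitted together (FDR 0.0263). Ggta1, which makes the sugar that isolectin B4 binds, held 532 counts in the arteriole and 29 in the capillary libraries, too few to test.

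**Figure D3:**
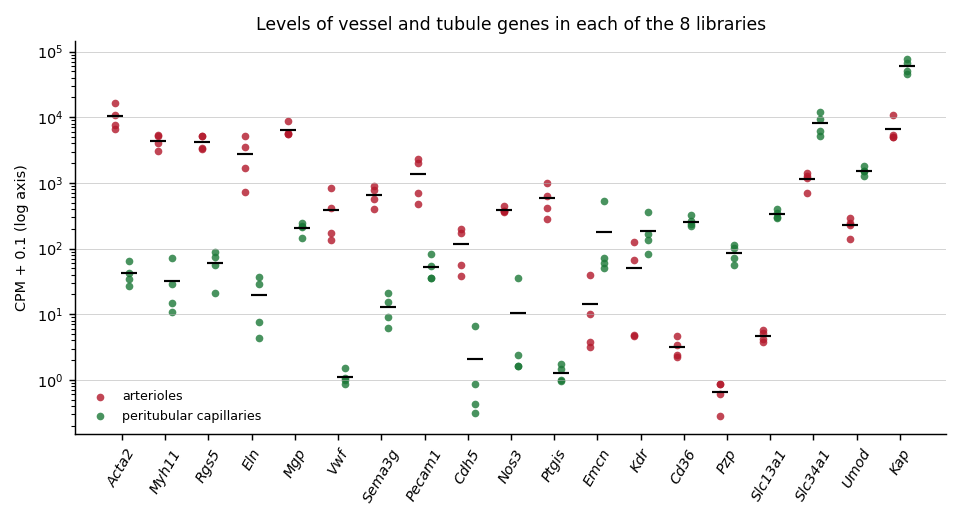
Level of vessel and tubule genes (CPM plus 0.1, log axis) in each arteriole library (red) and peritubular capillary library (green), with black bars for the group means. Wall and arterial genes on the left are higher in all arteriole libraries, Emcn and Kdr in the middle vary by an order of magnitude within a group, and the tubule genes on the right are higher in all capillary libraries.

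Because capillary libraries held fewer endothelial counts (5665 to 8448 pan-endothelial counts a library, against 34122 to 57308 in arterioles), all genes were also read per pan-endothelial count. On this scale 87 of 8340 genes were higher in arterioles (1.04%) and 2087 were lower (25.0%), with a median log2 fold change of -2.51. Of the 52 tested genes of the pan-endothelial, arterial and capillary endothelial lists, 8 were higher on this scale and 4 were lower. Vwf stood at 59.8, 112, 33.6 and 26.1 per 1000 pan-endothelial counts in arterioles and at 1.54, 1.24, 1.08 and 0.721 in capillaries (log2 fold change 5.66, FDR 0.0079). Heg1 (3.81, FDR 0.0045), Sema3g (2.85, FDR 0.033), Ltbp4 (2.60, FDR 0.012), Mgp (2.13, FDR 0.0024), Cytl1 (4.92, FDR 0.041), Bmx (5.77, FDR 0.049) and Pecam1 (1.95, FDR 0.042) were also higher per endothelial count. Mgp and Ltbp4 are made by smooth muscle and fibroblasts too, and Pecam1, like Kdr, is part of the sum it was divided by.

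The 4 genes lower in arterioles per endothelial count are known from capillary endothelium. However, 4 of 52 is a smaller share than the 25.0% of all tested genes that were lower on this scale. The median log2 fold change over all tested genes was -2.51 on it. Kdr, the main VEGF receptor, stood at 9.72, 0.628, 23.7 and 0.909 per 1000 pan-endothelial counts in arterioles and at 183, 114, 186 and 262 in capillaries (log2 fold change -4.41, FDR 0.0061). Emcn stood at 0.531, 0.419, 7.66 and 1.93 against 66.2, 68.7, 101 and 385 (-5.87, FDR 0.0017). Nrp1, a VEGF co-receptor, stood at 15.2, 3.39, 28.9 and 65.7 against 134, 283, 267 and 207 (-2.98, FDR 0.014), and Cd36 at 0.519 ± 0.249 against 289 ± 62.6 (-9.12, FDR 1.6e-06). For all 4 genes the groups did not overlap. Flt1, the other VEGF receptor, lay between 23.5 and 59.1 in arterioles and between 139 and 176 in capillaries without passing the test (-1.96, FDR 0.051). Plvap, with 7.35 ± 5.76 against 61.4 ± 37.0, did not pass either (-3.06, FDR 0.10). This scale was the only one of those tried on which Nrp1 was called, and the direction of Flt1, Plpp3 and Igfbp3 turned with it.

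**Figure D4:**
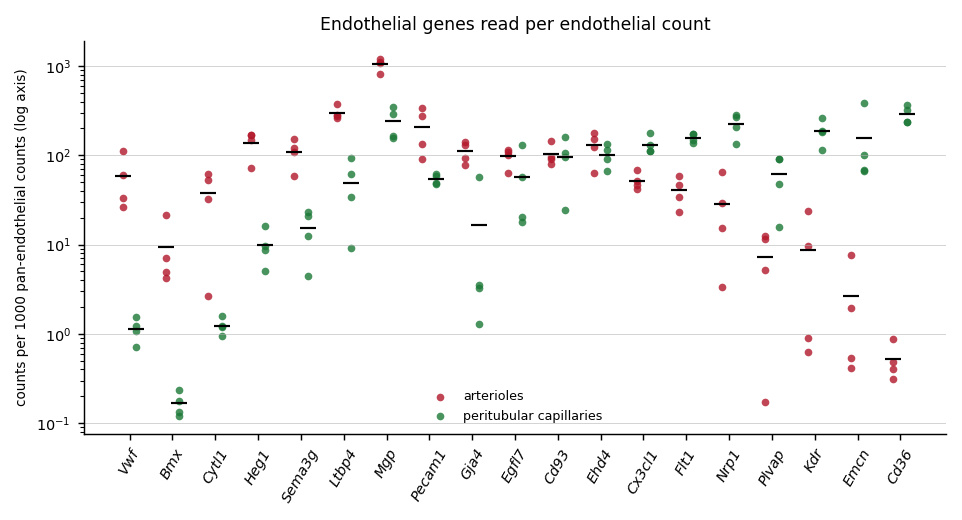
Counts of 19 endothelial genes per 1000 pan-endothelial counts (log axis) in each arteriole library (red) and peritubular capillary library (green), with black bars for the group means. Vwf, Heg1 and Sema3g lie higher in every arteriole library, Egfl7, Cd93 and Ehd4 overlap, and Flt1, Nrp1, Kdr, Emcn and Cd36 lie higher in every capillary library.

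Some genes of signals that act between endothelium and muscle were higher in arterioles. Of 27 vasoactive genes, 19 were tested, 6 were higher and none was lower, with a median log2 fold change of 2.54. Ptgis, prostacyclin synthase, stood at 640, 984, 408 and 284 CPM against 0.861, 0.898, 1.34 and 1.63 CPM (8.92, FDR 3.2e-07). Nos3, the endothelial nitric oxide synthase, stood at 449, 366, 376 and 365 CPM against 35.9, 1.54, 1.53 and 2.28 CPM (5.24, FDR 0.0024). Both were far above every capillary library, with capillary 93 the highest of its group for Nos3. The natriuretic peptide receptor Npr1 reached 239 ± 115 CPM against 10.9 ± 10.4 (4.46, FDR 0.011), the cyclic GMP-dependent kinase Prkg1 73.5 ± 37.5 against 0.344 ± 0.230 (7.69, FDR 0.017), and Edn1, the constrictor endothelin, 85.1, 203, 76.5 and 1.37 CPM against 0.108 to 0.958 CPM (7.51, FDR 0.018). Edn1 lost its call without arteriole 96 or capillary 93 or 96 (FDR up to 0.0744), and Prkg1 without capillary 93, 96 or 98 (FDR up to 0.0685). Per endothelial count Ptgis kept its call (6.09, FDR 0.0012), whereas Nos3 (2.51, FDR 0.155), Npr1 (1.80, FDR 0.324), Edn1 (4.54, FDR 0.111) and Prkg1 (4.99, FDR 0.0708) did not pass.

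Of 15 Notch pathway genes, 11 were tested and 5 were higher, with a median of 3.83. The ligand Jag1 stood at 126, 66.2, 186 and 369 CPM against 0.646, 0.898, 13.8 and 5.69 CPM (5.14, FDR 0.014), and the ligand Jag2 at 33.8, 87.3, 48.8 and 252 CPM against 9 counts over the capillary libraries (8.43, FDR 0.0045). Among receptors, Notch3 was described above and Notch4 of endothelium stood at 5.27, 1044, 128 and 199 CPM against 0.861 to 3.07 CPM (7.86, FDR 0.00033). Notch1 overlapped between the groups (0.24, FDR 0.98). The target gene Hey2 was called and Hes1 was not. The call of Jag1 was lost without arteriole 100 (FDR 0.0765) or capillary 96 (FDR 0.0503). Klf2, which endothelium makes under flow, was the only one of 16 tested immediate early and heat shock genes that was called, at 312 ± 110 CPM against 7.48 ± 5.33 (5.38, FDR 0.00064). Per endothelial count Jag2 (FDR 0.041) and Notch4 (FDR 0.040) kept their calls, and Jag1 (2.39, FDR 0.263), Notch3 (2.94, FDR 0.0984) and Klf2 (2.50, FDR 0.151) did not pass.

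Capillary libraries were higher in genes of the proximal tubule, the segment that reclaims most of the filtrate. Of 25 transport genes, all were tested, all had negative fold changes and 17 were lower in arterioles, with a median log2 fold change of -3.29. Slc34a1, the sodium phosphate cotransporter (chromosome 13, 55398187 to 55415592), stood at 696, 1428, 1253 and 1173 CPM in arterioles and at 5183, 6179, 9221 and 12104 CPM in capillaries (-2.84 ± 0.37 SE, FDR 1.5e-05). Slc13a1, the sodium sulfate cotransporter, stood at 3.64, 5.11, 5.67 and 4.12 CPM against 296, 344, 395 and 300 CPM (-6.16, FDR 4.8e-05). The groups were far apart for both. Slc13a3, a carrier of dicarboxylates, reached 123 ± 68.9 CPM against 1206 ± 296 (-3.29, FDR 0.00049), and Slc26a1, an anion exchanger, 5.10 ± 5.73 against 306 ± 63.4 (-5.89, FDR 0.00048). The organic cation transporter Slc22a2 stood at 9.27, 10.1, 181 and 49.7 CPM against 976, 1070, 930 and 1610 CPM (-4.20, FDR 0.0012). The number of transport genes called lay between 12 and 17 when 1 library was left out.

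Of 30 metabolic and brush border genes of the proximal tubule, all were tested, 16 were lower in arterioles and the median was -2.28. Kap, an androgen-regulated kidney protein (chromosome 6, 133849851 to 133853762), was the most abundant transcript of capillary libraries at 44926, 50174, 67748 and 77961 CPM, against 4921, 5074, 5431 and 10884 CPM in arterioles (-3.19 ± 0.29 SE, FDR 1.1e-07). Acsm2, an acyl-CoA synthetase, stood at 902 ± 62.8 CPM against 6844 ± 1493 (-2.92, FDR 4.1e-06). Cyp4b1, a cytochrome P450, reached 253 ± 158 CPM against 2368 ± 888 (-3.22, FDR 0.00033) and the aminoacylase Acy3 840 ± 419 against 4182 ± 1772 (-2.32, FDR 0.0015). Arterioles held proximal tubule transcripts too, and the share of counts was 7.42-fold lower for the transport list and 7.36-fold lower for the metabolism list. DESeq2 did not call Acy3. Of 20 tested fatty acid oxidation genes 2 were lower, among them Etfb, a subunit of the electron transfer flavoprotein (306 ± 126 against 1026 ± 566 CPM, FDR 0.045), whose call was lost without arteriole 96, 98 or 100 or capillary 96, 98 or 100 (FDR up to 0.177) and with DESeq2.

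Genes of later nephron segments were fewer. Of 16 genes of the loop of Henle, distal tubule and collecting duct, 13 were tested and 3 were lower in arterioles, with a median of -2.78. Umod, uromodulin of the loop, stood at 243, 226, 137 and 291 CPM against 1520, 1288, 1837 and 1504 CPM (-2.78, FDR 0.00042), and Slc12a3, the thiazide-sensitive cotransporter of the distal tubule, at 4.73, 5.74, 112 and 5.64 CPM against 581, 941, 685 and 1228 CPM (-4.74, FDR 0.0017). Pvalb, parvalbumin, had 27.6, 21.7, 1.34 and 226 CPM in capillaries and 0.182 to 0.638 CPM in arterioles (FDR 0.036), and lost its call without arteriole 93, 98 or 100 or capillary 93, 96 or 100 (FDR up to 0.179).

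The 15 genes with the lowest fold change were at or near 0 in arterioles. Kctd17, an adaptor of a ubiquitin ligase, had 0.727, 0.766, 0.768 and 0.305 CPM in arterioles and 73.7, 77.0, 175 and 316 CPM in capillaries (-7.93, FDR 0.00080). Slc5a11, a sodium-dependent inositol transporter, had 64.6, 38.2, 156 and 143 CPM in capillaries against 11 counts over the arteriole libraries (-8.01, FDR 0.0058). Sypl2 stood at 120 ± 32.9 CPM in capillaries against 21 counts (-7.46, FDR 0.0037) and Veph1 at 148 ± 124 CPM against 27 counts (-7.35, FDR 0.0047). These 4 kept their call without any 1 library. The other 11 were Tlr12, Mettl15, Slc16a12, Degs2, Galk2, Tmem144, Rdh16f2, Grtp1, Ngef, Anks4b and Bnc2. Each of them lost its call without at least 1 library, with FDR up to 0.155. Among all called genes, 93 of the 356 higher and 78 of the 262 lower genes had no library above 2 CPM in the other group. Their counts there were 0.326% (median) of those in the group where they were high for the higher genes and 0.581% for the lower genes, and 54 genes in each direction had counts in all 4 of those low libraries. Fold changes of these genes rest on such few counts.

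Promoters of the genes lower in arterioles held sites of the HNF factors, which act in the proximal tubule, in a small share. The HNF4 motif CAAAGTCCA was in 3.01% of their 266 promoters, in 0.546% of those of higher genes, in 0.456% of those of all genes tested and in 0.475% of all promoters. The HNF1 motif GTTAATNAT was in 1.88%, 0.0%, 0.479% and 0.801%, in the same order. The TATA box TATAAA was in 13.9%, 10.9%, 7.27% and 13.6%, and the GC box GGGCGG in 43.6%, 57.7%, 63.9% and 35.7%. Each motif was searched on both strands. The 8 promoters of lower genes with the HNF4 motif belonged to 6 genes. Of the 36 promoters of lower genes named by rule, 0.0% held the HNF4 motif. Among the genes named by rule only Pzp, an alpha-2-macroglobulin family member (0.182, 0.511, 0.768 and 0.762 CPM in arterioles against 57.0, 70.8, 100 and 112 CPM in capillaries, FDR 0.015, and 0.0544 without capillary 98), held an HNF1 motif match 202 bases before its start. Cltrn, the amino acid transport partner collectrin, and Agxt2, a mitochondrial aminotransferase, were picked after their values were seen, as genes called lower with a match close to the start (54 and 21 bases before it). Cltrn stood at 248, 19.7, 249 and 436 CPM in arterioles against 1260 to 1603 CPM in capillaries (-2.56, FDR 0.012, not called by DESeq2 with FDR 0.0796) and Agxt2 at 0.762 to 1.45 CPM against 129, 34.9, 49.2 and 180 CPM (-6.58, FDR 0.016, and up to 0.0745 without capillary 93 or 100). The matches are in capitals.
Pzp, HNF1 site, chr6:128526671-128526970, minus strand: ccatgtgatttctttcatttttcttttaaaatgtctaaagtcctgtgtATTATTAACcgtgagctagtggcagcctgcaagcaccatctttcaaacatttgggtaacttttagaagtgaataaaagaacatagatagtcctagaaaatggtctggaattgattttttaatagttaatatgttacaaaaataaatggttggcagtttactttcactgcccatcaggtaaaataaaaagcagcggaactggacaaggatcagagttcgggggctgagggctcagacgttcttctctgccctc
Cltrn, HNF1 site, chrX:164089937-164090236, plus strand: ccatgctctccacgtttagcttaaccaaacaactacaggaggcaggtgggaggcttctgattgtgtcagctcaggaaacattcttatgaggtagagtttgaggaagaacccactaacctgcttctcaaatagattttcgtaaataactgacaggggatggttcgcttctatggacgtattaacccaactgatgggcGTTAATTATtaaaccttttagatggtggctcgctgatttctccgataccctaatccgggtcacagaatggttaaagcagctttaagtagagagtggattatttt
Agxt2, HNF4 site, chr15:10358283-10358582, plus strand: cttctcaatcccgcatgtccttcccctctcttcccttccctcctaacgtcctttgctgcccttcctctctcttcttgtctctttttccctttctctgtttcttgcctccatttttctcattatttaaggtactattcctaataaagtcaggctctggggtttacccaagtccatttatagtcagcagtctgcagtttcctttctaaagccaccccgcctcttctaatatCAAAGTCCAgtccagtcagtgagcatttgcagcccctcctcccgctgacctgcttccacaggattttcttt

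**Figure D5:**
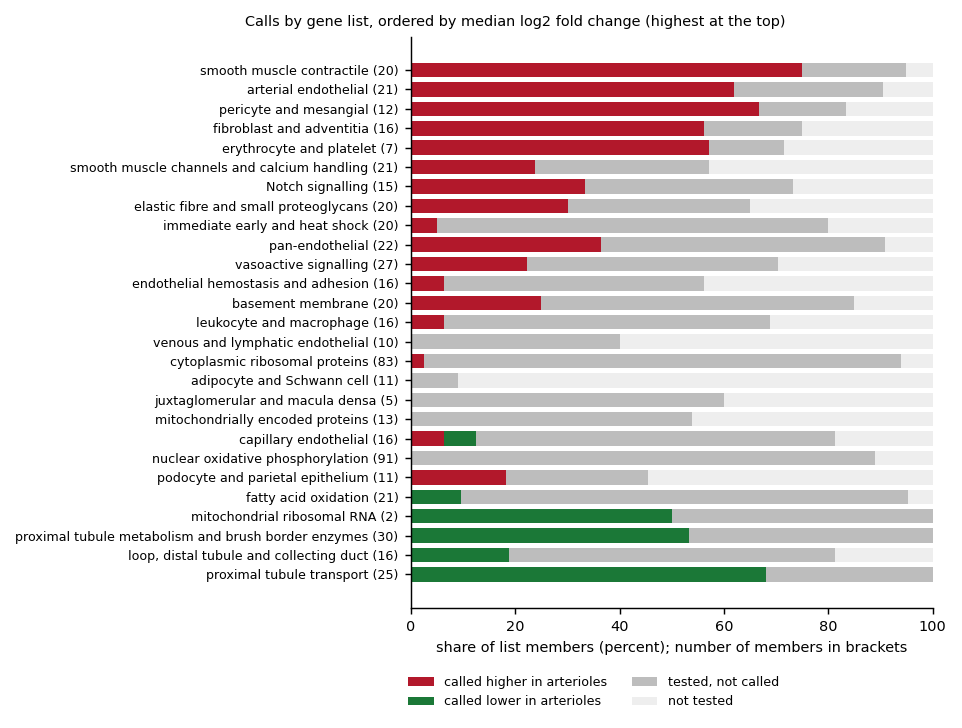
Share of the members of 27 gene lists (percent, with the number of members in brackets) called higher in arterioles (red), called lower (green), tested without a call (grey) or not tested (light grey), ordered by median log2 fold change. Smooth muscle contractile genes have the largest share of higher calls (15 of 20) and proximal tubule transport genes the largest share of lower calls among lists of more than 2 genes (17 of 25).

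Of the remaining cell type lists, the erythrocyte and platelet list held the most calls. All 4 hemoglobin genes were higher in arterioles: Hbb-bs stood at 10699, 27999, 4334 and 8558 CPM against 357, 373, 386 and 1061 CPM (4.57, FDR 2.7e-06), Hba-a1 at 7296 ± 5223 against 417 ± 301, Hba-a2 at 5672 ± 4525 against 161 ± 112, and Hbb-bt at 2869 ± 2078 against 59.9 ± 38.5. The near-identical hemoglobin copies may share reads, so the split between copies is uncertain. Of 11 tested leukocyte genes only the antigen-presenting gene H2-Aa was called (340 ± 63.8 against 52.2 ± 54.1 CPM, FDR 0.045), a call that was lost without any 1 library except capillary 96 (FDR up to 0.137). Of 11 podocyte and parietal genes, 5 were tested. Among these, 2 had positive and 3 had negative fold changes, with a median log2 fold change of -0.84, and none was called lower. Podxl, which endothelium also makes, was higher (823 ± 110 against 103 ± 34.3 CPM, FDR 0.0011), as was Synpo (351 ± 131 against 40.7 ± 26.2 CPM, FDR 0.013, and up to 0.0575 without capillary 93 or 98), while the podocyte genes Nphs1, Wt1 and Ptpro had too few counts to test. No member of the venous and lymphatic, the juxtaglomerular or the adipocyte and Schwann cell list was called, with 4, 3 and 1 members tested by edgeR. The part of these cells in the results above was not tested.

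Housekeeping lists held few calls. Of 78 tested genes of cytoplasmic ribosomal proteins, 73 had positive fold changes, 2 were called higher and the median was 0.99. These genes took 3.67% ± 0.312 of an arteriole and 1.91% ± 0.148 of a capillary library. The 2 called genes were Rps29 (2703 ± 800 against 870 ± 273 CPM, FDR 0.013) and Rps23 (562 ± 265 against 92.3 ± 28.6 CPM, FDR 0.0097), and without capillary 96 neither passed (FDR 0.0611 and 0.0503), nor did Rps29 without capillary 98 (FDR 0.0514) or with DESeq2. Of 81 tested nuclear genes of oxidative phosphorylation none was called, 70 had negative fold changes and the median was -0.51. None of the 7 tested mitochondrially encoded protein genes was called, with mt-Nd1 at 12709 ± 2019 against 11984 ± 921 CPM (0.08, FDR 0.93) and mt-Nd2 at 5235 ± 1317 against 6768 ± 2570 CPM (-0.37, FDR 0.65). The mitochondrial ribosomal RNA mt-Rnr2 was lower in arterioles, at 12378, 22594, 14278 and 15709 CPM against 37681, 38290, 36627 and 53270 CPM (-1.35, FDR 0.00071), a call that DESeq2 did not make (FDR 0.46). The numbers of list members called are read against the 4.27% and 3.14% of all genes.

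A list of 23 genes that were also measured by quantitative RT-PCR had 18 tested members, 7 higher and 4 lower. Several of them were picked by the study on these samples, so the counts are not independent evidence of a direction. Called higher in arterioles were Pecam1, Cdh5, Vwf, Ptgis, Kcnab1, Bmx and Cytl1, and called lower Cd36, Pzp, Slc22a2 and Slc5a10, a sugar transporter (9.44 ± 13.4 against 274 ± 100 CPM, -4.86, FDR 0.0050). Ehd3, of glomerular endothelium, had 394, 5.74, 7.01 and 177 CPM against 57.5, 90.6, 53.6 and 172 CPM (0.64, FDR 0.85), and Igf1 13.3 ± 12.7 CPM against 7.85 ± 9.60 (0.76, FDR 0.91). Both overlapped between the groups. Adgrl3, Akr1b7, Gabrb1, Rab3b and Rhpn1 had too few counts to test.

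Whole kidney sections of the same series set these levels in context, with the limit that their libraries were made from a set RNA amount and amplified with fewer PCR cycles. Over one scaling of all 20 libraries, the mean of all 356 genes called higher was more than 2-fold above whole kidney in arterioles, with a median log2 ratio of 4.30, and 341 were highest in arterioles of the 4 compartments that were microdissected. Of the 262 lower genes, 253 had a higher mean in capillaries than in whole kidney, 178 more than 2-fold. The median log2 ratio over the lower genes was 1.22, and for 260 the arteriole mean lay below whole kidney. All these genes were called on the same arteriole and capillary libraries, so these counts follow in part from that choice. The same shares over all genes tested were not worked out. Acta2 had 12564 ± 5924 CPM in arterioles on this scale, 49.0 ± 17.3 in capillaries and 121 ± 10.8 in whole kidney. Kap had 7818 ± 3297, 71437 ± 19937 and 28754 ± 768 CPM in the same order, and Slc34a1 1364 ± 409, 9716 ± 3936 and 2808 ± 158. Cd36, at 3.64 ± 1.28 CPM in arterioles, had 304 ± 60.2 in capillaries and 163 ± 26.9 in whole kidney. Pecam1 had 1661 ± 1132 CPM in arterioles, and its 61.3 ± 27.6 CPM in capillaries lay within the spread around the 65.1 ± 9.07 CPM of whole kidney.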

How the data were processed

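The deposited table held read counts per gene that the authors made from 3′ mRNA libraries (QuantSeq): adapter trimming, alignment to the mouse genome GRCm38.p6 with STAR 2.7 and counting with HTSeq 0.13. The strand setting and any use of molecular identifiers were not given in the sources used here. Reads are counted at the 3′ end, so counts do not scale with gene length. The 148 columns without a matching label were not used. The 8 libraries were fitted in edgeR 4.0.16 (R 4.3.3) with TMM scaling, filterByExpr and the quasi-likelihood F-test, without a replicate block, and 8340 of 34255 genes were tested. Calls required a Benjamini-Hochberg FDR under 0.05 and a log2 fold change beyond 1 in size. Alternatives used DESeq2 1.42.0, other scalings, filters and library sets, and the code was tested on simulated data. In counts simulated with the fitted spread, 6% of genes changed by a log2 of 2 were recovered. This share was 26% at 4, 68% at 6 and 84% at 8. The text names the 15 highest and 15 lowest called genes by fold change (at least 10 CPM in all 4 libraries of the higher group), up to 4 called members of each list by smallest p and up to 2 called the other way, the endothelial and qRT-PCR lists in whole, and Ggta1, except for a few genes that are not reported here. Tagln, Des, Vcl, Carmn, Col4a2, Hey2, Hes1, Nphs1, Wt1, Ptpro, Agxt2, Cltrn and the gene families of the closing section were named after their values were seen. The members and lists were chosen with earlier results of these data known. Coordinates are from GENCODE M21. CPM use the effective library total after TMM scaling, and shares use the plain library total. Errors are SD over 4 libraries unless given as SE.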

Additional observations from a re-analysis of the deposited data

Results flagged for a closer look

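A single library stood apart from the other 3 of its group in 39 of 394 groups of 4 libraries examined, by Dixon's test. The limit used flags about 1 in 20 groups of normally distributed values. Some groups held almost no counts, as for Mettl15 in arterioles (0.152 CPM, median of the others 0) and Atp2b2 in capillaries (0.192 CPM, median 0). Such groups are flagged by very few counts, so the 39 cannot be set against that rate. The groups were the levels of the genes named in the text (36 of 338) and the shares of gene lists. The library most often apart was capillary 100. It held 521 CPM of Emcn where the median of the others was 60.2, 77.9 of Gja4 (2.30), 196 of Ppp1r14a (0.385), 204 of Grtp1 (39.3), 1.14 of Tie1 (48.0), 53300 of mt-Rnr2 (37700), 1060 of Hbb-bs (373), 868 of Hba-a1 (269) and 117 of Hbb-bt (39.7).

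Among capillaries, library 96 stood apart for Icam2 (94.1 CPM), Jph2 (0.513), Erg (0.385) and Mmrn2 (18.2). Library 98 did so for Notch3 (24.4), Notch4 (3.07), Ptprb (4.50), Plvap (11.1) and Atp2b2 (0.192), and library 93 for Nos3 (35.9), Stmn2 (5.71) and Ppp1cb (29.4). Library 93 also had a share of 0.0131% for the adipocyte and Schwann cell list.

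Among arterioles, library 96 was highest for Mgp (8870 CPM), Fbln5 (1520), Hspg2 (1200), Tm4sf1 (823) and Mef2c (511). The TMM scaling factor of arteriole 96, 0.712, was the lowest of the 8 libraries. Library 93 stood apart for Nos3 (449), Gpihbp1 (74.7), Synpo (158) and Ecscr (1.27), with shares of 0.0835% for the venous and lymphatic list and 1.28% for mitochondrial ribosomal RNA. Library 100 stood apart for Kap (10900), Slc5a10 (29.6), Kctd17 (0.305), Degs2 (0.610) and Mettl15 (0.152), and library 98 for Slc12a3 (112).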

How the results depend on the processing

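Against 356 genes higher and 262 lower, leaving out 1 library gave 289 to 344 higher and 133 to 241 lower genes. DESeq2 called 1097 and 1097, edgeR's version 4 form 672 and 464, the 16 microdissected libraries fitted together 758 and 604, and all 20 libraries 1313 and 1391. Independent filtering called 738 higher genes. Per endothelial count, 87 were higher and 2087 lower. The cause of these shifts was not tested. The paper describes an arteriole slide and a capillary slide for every mouse, but the labels do not tie column numbers to mice. The correlation of deviations from the group mean lay between 0.0013 and 0.0148 for same-numbered libraries and between -0.0195 and 0.0227 for the others. In libraries that vary this widely such values cannot decide whether equal numbers mean the same mouse. The replicate block, which pairs equal numbers, called 371 genes higher and 305 lower, sharing 313 and 213 with the fit without it.

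Of the named genes, 29 turned direction per endothelial count, all to negative log2 values: Cav2 -1.87, Col18a1 -0.049, Esam -0.18, Tek -0.034, Ppp1cb -0.032, Cd34 -0.36, Igf1 -2.24, Unc5b -0.15, Igfbp3 -1.74, Rock2 -0.73, Plpp1 -0.25, Ehd3 -2.06, Rock1 -0.77, Sox17 -0.10, Eng -0.80, Notch1 -2.76, Plpp3 -1.59, Flt1 -1.96, Atp1b3 -2.69, Tie1 -0.54, Rps29 -1.11, H2-Aa -0.26, Ppp1r14a -0.12, Erg -0.96, S1pr1 -0.014, Rps23 -0.26, Cxcl12 -1.68, mt-Nd1 -2.70 and Ecscr -0.11. The replicate block turned Igfbp3 (-0.28), Ehd3 (-1.18) and Atp1b3 (-0.033), and totals without mitochondrial, hemoglobin and tubule genes turned Atp1b3 (-0.12) and mt-Nd1 (-0.20). Esm1 turned with relative log expression (0.14) and DESeq2 (0.19), as did mt-Nd2 with DESeq2 (0.013).
Leaving out 1 library turned 6 genes that were not called, with these ranges of log2 values: Ehd3 -0.51 to 1.11, Notch1 -0.49 to 2.80, Atp1b3 -0.53 to 0.48, Plvap -0.82 to 0.030, Esm1 -1.31 to 1.04 and mt-Nd1 -0.0074 to 0.21.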

Other observations

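Families outside the lists of the report also differed between arterioles and peritubular capillaries, and these families were chosen after the values were seen. Over all genes tested, 4.27% were higher in arterioles and 3.14% were lower. Regulatory and beta subunits of the sodium pump, which moves sodium and potassium across the cell membrane, were called in both directions. Fxyd1, the regulator phospholemman, stood at 741, 685, 246 and 260 CPM in arterioles and at 2.15, 0.898, 0.958 and 1.14 CPM in capillaries (log2 fold change 8.53, edgeR FDR 1.5e-06). Fxyd5 (4.83, FDR 0.0056) and Atp1b2 (3.84, FDR 0.041) were also higher. Atp1b1 (-2.03, FDR 0.0019) and Fxyd2, the kidney gamma subunit (-2.002, FDR 0.0040), were lower. Groups did not overlap for any of these 5 genes, and DESeq2 did not call Atp1b1 or Fxyd2. Atp1b3 and Fxyd4 were not called (0.19 and -4.33), although DESeq2 called Fxyd4 (FDR 0.0226). The call of Atp1b2 was lost without 6 of the 8 libraries in turn (FDR up to 0.111).

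Myosin light chain kinase and its opposing phosphatase, which set smooth muscle tone, had 6 of 8 tested genes higher. Mylk, the kinase, stood at 5194, 5029, 3139 and 3175 CPM against 404, 266, 360 and 396 CPM (3.54, FDR 3.0e-06), and the phosphatase subunits Ppp1r12b (6.35, FDR 0.00025), Ppp1r12a (3.32, FDR 0.00048), Ppp1cb (2.79, FDR 0.012) and Ppp1r12c (3.17, FDR 0.047) and the kinase Rock1 (2.19, FDR 0.035) were also called higher. Leaving out 1 library lost the call of Ppp1r12c in 7 of 8 fits (FDR up to 0.104; DESeq2 did not call it either), that of Rock1 in 5 (up to 0.133) and that of Ppp1cb without capillary 93 (0.0605). Per endothelial count Mylk did not pass (0.73, FDR 0.217). Rock2 was not called. Ppp1r14a was not called (FDR 0.486), with 196 CPM in capillary 100 and a median of 0.385 in the other capillary libraries. Without that library it was higher in arterioles (8.87, FDR 0.00079), as with the replicate block (7.16, FDR 0.0010). Of 20 tested genes of TGF-β signalling 7 were higher and none was lower: the ligands Tgfb3, Inhba, Gdf10 (8.22, FDR 0.00087) and Tgfb2 (5.48, FDR 0.0093), the endothelial receptor Acvrl1 (4.84, FDR 0.0022) and the early targets Id1 (4.61, FDR 0.0030) and Id3 (3.61, FDR 0.0029). Without arteriole 96 the FDR of Tgfb2 was 0.211. Per endothelial count Tgfb3, Inhba and Gdf10 kept their calls. On that scale Tgfb2 (2.25, FDR 0.294), Acvrl1 (1.93, FDR 0.243), Id1 (1.70, FDR 0.296) and Id3 (1.22, FDR 0.237) did not pass.

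Among 15 tested tissue transcription factors, Mef2c (4.27, FDR 0.0016), Gata6 (7.58, FDR 0.0061) and Myocd, the coactivator of smooth muscle genes (7.78, FDR 0.038), were higher in arterioles. The lower ones were Mlxipl (-6.25, FDR 0.00098), the bile acid receptor Nr1h4 (-6.87, FDR 0.0054), Hnf4a of the proximal tubule (-3.14, FDR 0.035) and the vitamin D receptor Vdr (-2.72, FDR 0.044). Calls were lost on leaving out 1 library for Myocd (FDR up to 0.125), Vdr (up to 0.142), Hnf4a (up to 0.0966) and Nr1h4 (0.0781 without capillary 100). Hnf4a and Vdr also lost their calls with relative log expression size factors (FDR 0.0877 and 0.0738) and with DESeq2 (FDR 0.0756 and 0.109). For Hnf4a and Vdr the groups did not overlap.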
